A study of Mus musculus with 9 samples.

Results

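The comparison here is between whole kidneys of mice lacking Pkd2 in the kidney tubules and kidneys of wild type mice. It takes 6 of the 9 libraries of the series, 3 from Pkd2 knockout mice (KO1 to KO3) and 3 from wild type mice (WT1 to WT3). It covers the 15740 of 22161 listed genes whose mean over all 9 libraries was at least 10 normalized counts. All mice were C57BL/6. The knockout genotype was Pkd2fl/fl;Pax8rtTA;TetO-cre, in which doxycycline switches on the cre through an rtTA driven in tubule epithelium, so cells in which the driver is silent keep the gene. Mice of both genotypes, controls included, drank doxycycline (2 mg/ml) over 2 weeks that began on postnatal day 28, and their kidneys were collected at 10 weeks of age (postnatal day 70). Each library is poly(A) RNA from 1 mouse. The third group of the series, which also lacks Ift88 (DKO1 to DKO3), entered the fit only to help estimate the spread between mice.

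Pkd2 encodes polycystin-2, a cation channel of the primary cilium and the endoplasmic reticulum that works with polycystin-1, the product of Pkd1. Loss of either gene in tubule cells leads to fluid-filled cysts, and their mutation causes autosomal dominant polycystic kidney disease. Tubule epithelium divides rarely in the adult kidney. Along the nephron, the proximal tubule takes back most of the filtered solute, the thick ascending limb takes up salt and dilutes the urine, and the collecting duct sets its final salt, acid and water content.

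Normalized totals of the 6 libraries lay between 40675129 and 42471650. Read totals were recovered for 4 of them and lay between 37056843 and 44015674. Kidney markers were present at high levels in every library, with the proximal phosphate transporter gene Slc34a1 at 246650.0, 218360.0 and 229224 in WT and 225690.0, 224552 and 259556 in KO. The mice differed beyond genotype. WT1 and WT2 correlated at 0.9921 and KO1 and KO2 at 0.9906 (Pearson, log2 values, across genes). WT3 reached 0.9788 and 0.9783 with the other WT libraries, and KO3 0.9785 and 0.9736 with the other KO libraries. The names of WT3 and KO3 carry another prefix than those of the other mice of their group, and no prefix occurs in both genotypes, so prefix and genotype cannot be told apart. Counts without WT3 and KO3 are therefore given beside the leading results.

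Limma called 377 of the 15740 genes at a Benjamini-Hochberg adjusted p below 0.05, which is 2.40% of them. Of these, 180 (1.14%) were higher in the KO kidneys and 197 (1.25%) were lower. Counts of called members in each gene list below are to be read against these shares. Log2 fold changes are KO minus WT on the scale of log2(normalized count + 1), which understates the change of low genes, and carry their standard error. The median over all tested genes was 0.004. The most frequent kind of gene among the largest rises was mitotic: 16 of the 20 largest rises among called genes with a mean of at least 50 belonged to lists of mitotic and spindle genes. The largest falls held genes of conjugation, a kallikrein, stress-response genes and Pkd2 itself. The calls depended on single libraries: 59 genes, 27 higher and 32 lower, stayed called whichever of the 9 libraries was left out. The number called was 106 without WT1, 70 without WT2, 91 without KO1 and 80 without KO2. Without WT3 and KO3 together it was 517, of which 211 were among the 377.

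**Figure D1:**
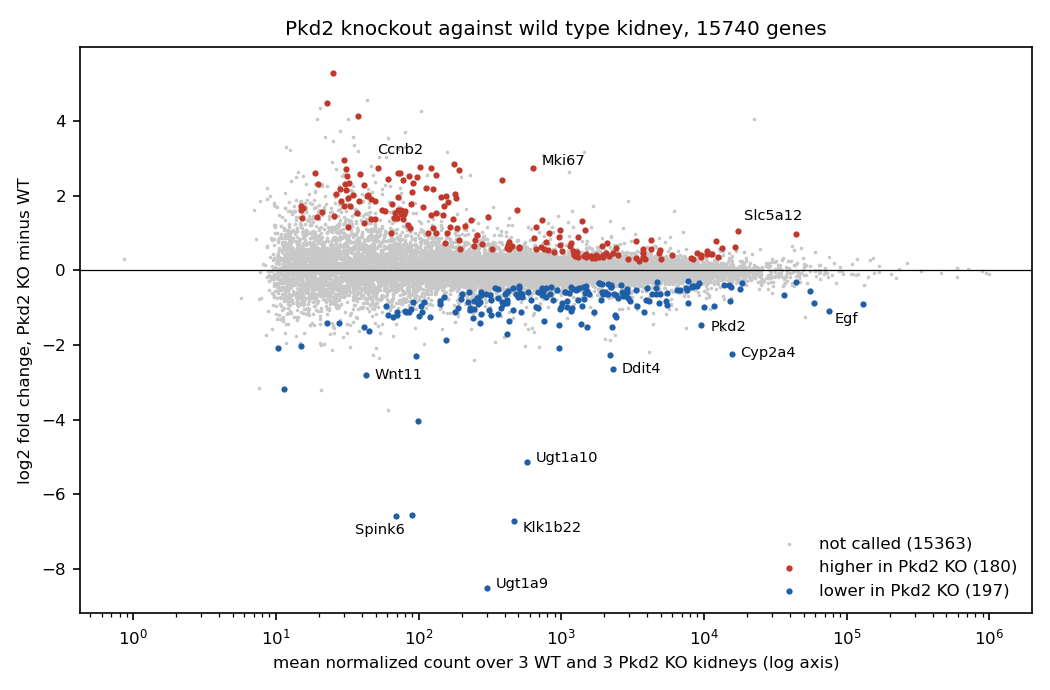
Each point is 1 of 15740 genes, with its mean normalized count over the 6 kidneys on a log axis and its log2 fold change (KO minus WT) on the y axis. Red marks the 180 genes called higher and blue the 197 called lower, the mitotic genes Mki67 and Ccnb2 lie above 2.5 and the lowest points are Ugt1a9, Klk1b22, Ugt1a8 and Spink6, most of whose KO values are at or near 0.

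Pkd2 was at 13768, 14013 and 14505 in WT and 4723, 5083 and 5549 in KO (normalized counts, mice 1 to 3 in that order, as in all such sentences that follow). No KO kidney came near the WT range. The mean fell from 14095 ± 375 to 5118 ± 414 (SD, n = 3), to 36.3% of WT (log2 fold change -1.46 ± 0.12, adjusted p = 0.000972, limma). This call held whichever of the 9 libraries was left out. Without WT3 and KO3 together the log2 fold change was -1.50 (adjusted p = 0.0136, limma). It missed the threshold with edgeR on the 7 libraries with recovered reads (adjusted p = 0.0581). On the same 7 libraries it passed with DESeq2 (adjusted p = 2.73e-12) and with limma (adjusted p = 0.0416). These 7 were WT2, WT3, KO2, KO3 and DKO1 to DKO3. Every edgeR and DESeq2 result that follows leaves out WT1 and KO1. The transcript level counts reads from all kidney cells and may include undeleted exons, and does not give the fraction of cells in which it was deleted.

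The 20 tested genes that flank Pkd2 most closely in the RefSeq gene order, 10 on each side, included 1 called gene. Genes that were not tested are passed over in this order. Hsd17b11, which encodes a hydroxysteroid dehydrogenase of lipid droplets and lies 4 tested genes before Pkd2, was at 28981, 31453 and 27927 in WT and 64117, 50810.3 and 59863 in KO. Its lowest KO value exceeded its highest WT value, and the log2 fold change was 0.98 ± 0.16 (adjusted p = 0.0173). Hsd17b11 (left out: WT1, WT2 or KO1) lost its call without 1 library, with adjusted p up to 0.0746. Spp1, the osteopontin gene and the nearest tested gene before Pkd2, was at 20424, 20340.5 and 22529 in WT and 22068, 35079.6 and 15857 in KO, with overlapping groups.

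Among 26 tested genes of cystic and ciliary kidney disease, 1 was called higher and 1, Pkd2, lower. Glis2, a zinc finger transcription factor whose loss causes nephronophthisis, was at 8469.6, 8416 and 9649.9 in WT and 11148, 12574 and 12395 in KO. Every KO kidney was above every WT kidney, and the gene rose by 0.45 ± 0.08 on the log2 scale (adjusted p = 0.0252). Glis2 (left out: WT1, WT2 or KO2) lost its call without 1 library, with adjusted p up to 0.105.

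The other 24 genes did not pass. Pkd1 was at 2342, 2418 and 1956 in WT and 2738, 2712 and 2275 in KO. The fibrocystin gene Pkhd1, mutated in recessive polycystic disease, was at 12552, 11988 and 11099.8 in WT and 13211, 11815 and 9954 in KO. In both, the groups overlapped (adjusted p = 0.374 and 0.898). Genes that fold and process polycystins in the endoplasmic reticulum had log2 fold changes of -0.0013 (Ganab), 0.01 (Prkcsh), -0.07 (Sec63), 0.03 (Dnajb11) and 0.25 (Alg9). Genes of intraflagellar transport had 0.07 (Ift88), -0.01 (Ift140) and 0.06 (Kif3a). Among genes of nephronophthisis, the values were -0.40 (Nphp4), 0.24 (Invs), -0.21 (Anks6) and -0.10 (Nek8). For genes of the ciliary base and membrane they were 0.10 (Cep290), -0.21 (Tmem67), -0.09 (Arl13b) and 0.19 (Bbs4). Another 3 genes had -0.07 (Glis3), -0.04 (Bicc1) and -0.22 (Lrp5).

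Genes that carry cells through mitosis rose together. Of 67 tested members of a list of mitotic kinases, cyclins and regulators (25) and a list of spindle, kinetochore, condensin and cytokinesis genes (42), 39 were called higher (58.2%, against 1.14% of all tested genes) and none lower. The 39 genes rose 1.68-fold to 7.17-fold in mean level, with a median of 3.96-fold, from WT means of 9.11 to 180.2 normalized counts. In bulk RNA of this kind, a different number of cells of a type and a different amount of RNA per cell cannot be told apart.

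Promoters of mitotic genes often pair CCAAT boxes, bound by the factor NF-Y, with a cell cycle genes homology region of core letters TTTGAA, bound by the MuvB complexes that act in G2 and M. The stretches from 250 bases before to 50 bases after the RefSeq start of 4 called genes are printed 5′ to 3′ on the gene's own strand, to show these letters in genes that rose. They are Ccnb2 (chr9:70421505-70421804, minus strand), Cdk1 (chr10:69352863-69353162, minus), Ube2c (chr2:164769679-164769978, plus) and Top2a (chr11:99024140-99024439, minus) of GRCm38.p6. Capitals mark CCAAT and TTTGAA or their reverse complements ATTGG and TTCAAA.
Ccnb2: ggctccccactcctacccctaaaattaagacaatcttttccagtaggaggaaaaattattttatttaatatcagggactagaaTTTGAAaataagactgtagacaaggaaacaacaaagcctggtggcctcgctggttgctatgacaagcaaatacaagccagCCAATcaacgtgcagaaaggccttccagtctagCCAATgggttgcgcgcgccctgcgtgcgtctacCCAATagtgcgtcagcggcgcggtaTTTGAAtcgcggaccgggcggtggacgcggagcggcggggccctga
Cdk1: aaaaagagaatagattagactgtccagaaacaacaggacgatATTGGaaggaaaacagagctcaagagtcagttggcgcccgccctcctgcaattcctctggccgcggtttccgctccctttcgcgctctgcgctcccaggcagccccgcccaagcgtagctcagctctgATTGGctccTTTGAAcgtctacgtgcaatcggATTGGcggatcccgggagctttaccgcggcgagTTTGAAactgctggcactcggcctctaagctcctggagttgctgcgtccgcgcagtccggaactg
Ube2c: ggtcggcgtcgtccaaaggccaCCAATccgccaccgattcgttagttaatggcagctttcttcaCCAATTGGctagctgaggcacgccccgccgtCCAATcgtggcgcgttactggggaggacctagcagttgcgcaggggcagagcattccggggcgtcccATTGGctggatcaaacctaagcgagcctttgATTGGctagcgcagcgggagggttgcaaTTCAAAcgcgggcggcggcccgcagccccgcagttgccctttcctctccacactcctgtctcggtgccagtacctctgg
Top2a: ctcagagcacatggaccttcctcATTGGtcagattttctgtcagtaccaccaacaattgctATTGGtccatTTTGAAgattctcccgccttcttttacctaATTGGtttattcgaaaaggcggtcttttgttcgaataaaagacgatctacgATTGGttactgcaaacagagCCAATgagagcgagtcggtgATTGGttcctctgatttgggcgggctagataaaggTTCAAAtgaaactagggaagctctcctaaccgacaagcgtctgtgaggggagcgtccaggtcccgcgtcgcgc
Ccnb2 carries CCAAT at -87, -54 and -21 and TTTGAA at -167 and 4, counted to the first base from the start site. In Cdk1 TTTGAA begins at -71 and -15 and in Top2a at -179. The reverse complement TTCAAA begins at -29 in Ube2c and at -23 in Top2a. Ube2c also has a CCAAT that overlaps an ATTGG.

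Over all 27025 genes with a RefSeq promoter of this length, TTTGAA occurred on either strand in 18.1% and CCAAT in 37.9%. Among the 11228 tested genes that matched a promoter, the shares were 12.1% and 38.1%. TTTGAA was found in 29 of 37 spindle list promoters (78.4%) and in 10 of 19 promoters of the mitotic kinase and cyclin list (52.6%). CCAAT was found in 26 of 37 (70.3%) and 16 of 19 (84.2%). Within these 2 lists, 27 of the 32 genes called higher (84.4%) and 12 of the 24 not called (50%) held TTTGAA, while CCAAT was at 75% in both. Of all called genes, TTTGAA occurred in 53 of 135 higher (39.3%) and 9 of 138 lower (6.52%). The 135 include the 32 mitotic and spindle genes just counted, and the 53 include their 27. The E2F letters GCGGGAA, searched on both strands, were in 12 of 30 replication promoters (40%) and in 0 of 19 of the mitotic kinase and cyclin list, against 8.04% of tested genes. These counts describe letters in a fixed window, and a match is not a bound site.

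Among the mitotic kinases, cyclins and regulators, 12 of 25 rose. The other 13 missed the threshold, and the list's median log2 fold change was 1.84. In 19 of the 25 the KO values all exceeded the WT values, as they did for 12.4% of all tested genes. Cyclin B2 (Ccnb2), which activates Cdk1 for entry into mitosis, was at 35.2, 20.3 and 21.8 in WT and 151, 177 and 206 in KO. Cdk1 itself was at 31.1, 22.5 and 31.6 in WT and 143, 178 and 176 in KO. For cyclin B1 (Ccnb1) the levels were 20.1, 12.4 and 7.62 in WT and 90.4, 82.2 and 97.5 in KO. All 3 genes were several times higher in each KO kidney than in any WT kidney, with log2 fold changes of 2.77 ± 0.26, 2.51 ± 0.26 and 2.75 ± 0.35 (adjusted p = 0.00242, 0.00346 and 0.00697). Cyclin A2 (Ccna2), which acts in S and G2 phase, was at 57.2, 65.4 and 88.2 in WT and 280.1, 300.0 and 289 in KO (2.05 ± 0.20). Foxm1, the transcription factor that switches on G2/M genes, was at 51.2, 58.6 and 108 in WT and 205, 264 and 283 in KO (1.84 ± 0.30). The highest WT value of Foxm1 was that of WT3.

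Ube2c and Cdc20, the ubiquitin-conjugating enzyme and an activator of the anaphase-promoting complex, rose by 2.62 ± 0.30 and 2.17 ± 0.36. Ube2c was at 20.1, 21.4 and 18.5 in WT and 114, 131 and 139 in KO. Some kinases of the spindle and its checkpoint were called as well: Ttk rose by 2.15, Plk1 by 1.62, Aurka by 1.50 and the mitotic kinase Pbk by 2.35. The kinase genes Aurkb, Bub1, Bub1b and Nek2 of the same list were not called. Pkmyt1, which holds Cdk1 inactive, rose by 1.39. The most abundant member that did not pass was securin (Pttg1), at 733, 753 and 1351 in WT and 1089, 1089.6 and 1343 in KO. Ccnb2, Ccnb1, Ube2c, Cdk1 and Ccna2 kept their calls whichever library was left out. Pbk (left out: KO2), Ttk (left out: WT2, KO1 or KO2), Foxm1 (left out: WT1, WT2, KO1 or KO2), Cdc20 (left out: WT1, WT2, WT3, KO1 or KO2), Aurka and Pkmyt1 (left out: WT1, WT2, KO1, KO2 or KO3), and Plk1 (left out: any WT or KO or DKO1) lost their calls without 1 library, with adjusted p up to 0.148. The list's count was 7 without WT1, 6 without WT2, 6 without KO1 and 5 without KO2, and 8 without WT3 and KO3 together.

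Of the 42 spindle, kinetochore, condensin and cytokinesis genes, 27 rose and 15 missed the threshold. All 42 had higher means in KO, 40 of them without overlap, and the median log2 fold change was 1.62. Mki67, the proliferation marker Ki-67 that coats mitotic chromosomes, was at 202, 146 and 150.2 in WT and 969, 1166 and 1177 in KO. The mean went from 166 ± 30.96 to 1104 ± 117 (SD, n = 3), a log2 fold change of 2.73 ± 0.30 (adjusted p = 0.00402). Top2a, the topoisomerase that untangles sister chromatids, was at 125, 104 and 131 in WT and 577, 758 and 616 in KO (2.43 ± 0.25, adjusted p = 0.00338). In both genes the 3 KO kidneys formed a tight group far above WT.

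Kinetochore genes that rose were Cenpf (2.85), Casc5 (2.11), Nuf2 (1.91) and the centromeric histone Cenpa (1.13). Mitotic kinesins that rose were Kif2c (2.59), Kif18b (2.53), Kif11 (1.97), Kif4 (1.96), Kif22 (1.60), Kif20a (1.49) and Kif15 (1.27). Spindle-associated genes that rose were Hmmr (2.75), Ckap2 (2.61), Tpx2 (2.55), Ckap2l (2.42), Aspm (2.20) and Tacc3 (0.74). Each of these classes therefore held called members.

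Cytokinesis was represented by Prc1 (1.93), the anillin gene Anln (1.74) and Racgap1 (1.54). Condensin subunits Ncapg and Ncaph rose by 1.86 and 1.51, separase (Espl1) by 1.59, and Birc5 and Incenp of the chromosomal passenger complex by 1.77 and 0.82. Kif20b, the most abundant member that did not pass, was at 3184, 2626 and 2078 in WT and 4670.5, 3602 and 2304 in KO, with overlapping groups.

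Mki67, Top2a, Cenpf, Casc5, Nuf2, Kif2c, Kif11, Kif4, Ckap2l and Prc1 kept their calls whichever library was left out. Kif22, Hmmr, Ckap2, Tpx2, Anln and Espl1 (left out: WT2 or KO2), Racgap1 (left out: KO1 or KO2), Kif20a (left out: WT1, WT2 or KO2), Kif15 and Aspm (left out: WT2, WT3, KO1 or KO2), Tacc3 and Ncaph (left out: WT1, WT2, KO1 or KO2), Birc5 (left out: WT1, WT2, KO1, KO2 or KO3), Kif18b (left out: any WT or KO), Cenpa and Incenp (left out: any WT or KO or DKO1), and Ncapg (left out: any WT or KO or DKO2) lost their calls without 1 library, with adjusted p up to 0.166. The spindle list's count was 11 without WT2, 17 without KO1, 10 without KO2 and 18 without WT3 and KO3 together. It was 26 with DESeq2 and 0 with edgeR or limma on the 7 libraries with recovered reads.

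Other called genes with large rises were Iqgap3, a scaffold of dividing cells (2.54 ± 0.27), Esco2, which acetylates cohesin in S phase (2.45 ± 0.45), and Trim59 (1.98 ± 0.24). Trim59 was at 86.4, 49.6 and 53.3 in WT and 209, 262 and 268 in KO. Iqgap3 and Trim59 kept their calls whichever library was left out. Esco2 (left out: any WT or KO) lost its call without 1 library, with adjusted p up to 0.112.

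Fewer DNA replication genes were called. Of 37 tested, 5 rose and 32 missed the threshold. The median log2 fold change was 0.41, and 22 genes had KO values all above WT (12.4% of all tested genes did). Both subunits of ribonucleotide reductase, which makes the building blocks of DNA, were among the 5. Rrm2 was at 179, 172 and 150.2 in WT and 410.1, 462 and 477 in KO and Rrm1 at 560.4, 557 and 612 in WT and 862, 1065 and 1004 in KO, rising by 1.42 ± 0.17 and 0.76 ± 0.10 (adjusted p = 0.00525 and 0.00846). The E2F family repressor E2f8 rose by 2.18 ± 0.36, Uhrf1, which keeps DNA methylation in place at replication, by 1.39 ± 0.24, and the polymerase epsilon subunit Pole by 1.01 ± 0.20. Rrm2 kept its call whichever library was left out. Rrm1 (left out: WT2), E2f8 and Uhrf1 (left out: WT1, WT2, KO1 or KO2), and Pole (left out: any WT or KO) lost their calls without 1 library, with adjusted p up to 0.138. The list's count was 2 without WT1, 1 without WT2, and 2 without KO1 or without KO2. Without WT3 and KO3 together it was 5.

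No call was made among 16 G1 cyclins, CDK inhibitors and Myc genes, which pass or block the entry into the cycle. Limma gave 3 of them an unadjusted p under 0.05, all higher. Of all tested genes 18.0% reached an unadjusted p under 0.05 (9.36% higher, 8.67% lower), and counts at this level are to be read against that share. DESeq2 and edgeR called 0, and limma called 1, Cdk6, without KO3. Cyclin D1 (Ccnd1) was at 10619, 11538 and 9545 in WT and 14795, 14920.5 and 15683 in KO. Its KO values all exceeded its WT values, but the difference of 0.52 ± 0.13 did not pass (adjusted p = 0.0813). Among 19 targets of p53, the 1 called gene was the death receptor Eda2r, at 37.2, 29.3 and 18.5 in WT and 93.4, 153 and 60.4 in KO (1.77 ± 0.38, adjusted p = 0.0464). Eda2r (left out: WT1, WT2, WT3, KO1, KO2, DKO1, DKO2 or DKO3) lost its call without 1 library, with adjusted p up to 0.149. Ccng1, the most abundant p53 target not called, was at 13109, 12130.4 and 9802 in WT and 12731, 14748 and 10541 in KO, and its groups overlapped.

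**Figure D2:**
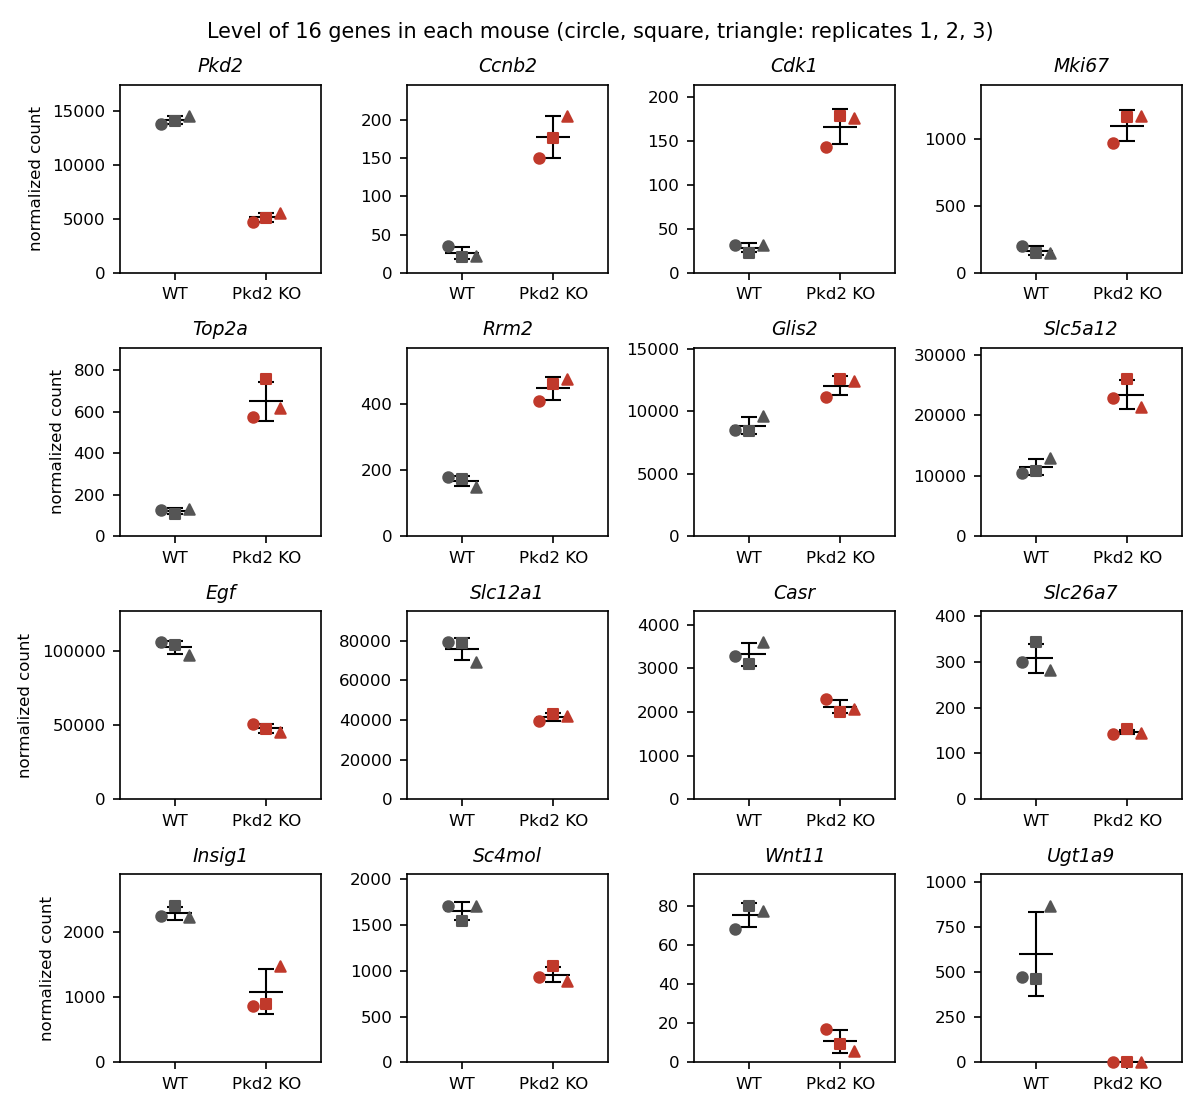
Normalized counts of 16 genes in each mouse on linear axes that start at 0, with circles, squares and triangles for replicates 1, 2 and 3, and bars for the mean ± SD of each group. In each of the 16 panels the 3 KO kidneys lie apart from the 3 WT kidneys, above them for the cell cycle genes, Glis2 and Slc5a12 and below them for the others.

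Markers of the thick ascending limb fell. Of 18 tested, 8 were called lower (1.25% of all tested genes were) and none higher. All 18 had lower means in KO, and in 15 every KO value was below every WT value, as was the case for 12.8% of all tested genes. The median log2 fold change was -0.62. Egf, the epidermal growth factor precursor that this segment makes in large amounts, was at 105804, 103804 and 97547 in WT and 50899, 47229 and 45149 in KO. Slc12a1, the sodium-potassium-chloride cotransporter NKCC2, was at 79186, 78826 and 69505 in WT and 39541, 43008 and 41939.9 in KO. Umod, which encodes uromodulin, the main protein of normal urine, was at 173515, 163265 and 171175 in WT and 101002, 103552 and 69605 in KO. In all 3 genes every KO kidney was far below every WT kidney, and KO3 had the lowest Umod value. The log2 fold changes were -1.10 ± 0.13, -0.87 ± 0.12 and -0.91 ± 0.17 (adjusted p = 0.00518, 0.00929 and 0.0319).

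The calcium-sensing receptor Casr was at 3274, 3089.8 and 3595 in WT and 2286, 2002 and 2076 in KO (-0.65 ± 0.08, adjusted p = 0.00525). The transcription factor Irx1 of the segment (-0.63 ± 0.10), the prostaglandin E2 receptor Ptger3 (-0.61 ± 0.10) and Ppp1r1a, an inhibitor of protein phosphatase 1 (-0.83 ± 0.13), also fell. The apical potassium channel Kcnj1, the most abundant member not called, was at 9835, 8135 and 10085 in WT and 6621, 7454 and 5714 in KO (adjusted p = 0.0672). Egf and Casr kept their calls whichever library was left out. Slc12a1 (left out: WT2), Ptger3 (left out: WT2 or KO1), Irx1 and Ppp1r1a (left out: WT1, WT2, KO1 or KO2), and Umod (left out: WT1, WT2, WT3, KO1 or KO2) lost their calls without 1 library, with adjusted p up to 0.110. The count for the list was 4 without WT1, 2 without WT2, 3 without KO1, 4 without KO2 and 6 without WT3 and KO3 together. Without WT1 and KO1, DESeq2 called 9 of the list and edgeR 0, and limma on the same 7 libraries called 0.

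Farther along the nephron fewer genes passed. In the distal convoluted and connecting tubule, 2 of 17 genes fell, both of calcium transport, and 16 of 17 had lower means (median -0.46). Of all tested genes 1.25% were called lower. In 12 of the 17 every KO value was below every WT value, against 12.8% of all tested genes. The sodium-calcium exchanger Slc8a1 was at 2441, 2009 and 2746 in WT and 1309, 1420.4 and 1415 in KO (-0.78 ± 0.11, adjusted p = 0.0101). The calcium-binding protein calbindin (Calb1) was at 19444, 16338 and 22565 in WT and 11194, 12991 and 8969.9 in KO (-0.82 ± 0.17, adjusted p = 0.0448). Slc8a1 (left out: KO1), and Calb1 (left out: any WT or KO, DKO1 or DKO3) lost their calls without 1 library, with adjusted p up to 0.135. Tissue kallikrein (Klk1), the most abundant uncalled member, was at 24110.3, 30325 and 44126 in WT and 30012, 26184 and 20949 in KO.

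Intercalated cells, which secrete acid or base, had 3 of 17 markers called lower, against 1.25% of all tested genes. Their median was -0.37, 15 of 17 had lower means, and 12 were lower without overlap, against 12.8% of all tested genes. Slc26a7, an anion exchanger, was at 299, 343 and 282 in WT and 143, 152 and 144 in KO (-1.06 ± 0.13, adjusted p = 0.00525). The ammonia transporter Rhbg and the proton pump subunit Atp6v1g3 had log2 fold changes of -0.60 ± 0.11 and -0.58 ± 0.09 (adjusted p = 0.0287 and 0.0171). Slc26a7 kept its call whichever library was left out. Atp6v1g3 (left out: WT1, WT2 or KO1), and Rhbg (left out: any WT or KO) lost their calls without 1 library, with adjusted p up to 0.101. Another pump subunit, Atp6v0a4, was at 12441, 12067 and 11898 in WT and 11562, 11217 and 13761 in KO and did not pass. Limma called 0 of 13 markers of principal cells, which reabsorb water and sodium, and neither DESeq2 nor edgeR called any. The mean was lower in KO for each of the 13 (median -0.29), 6 had groups without overlap (12.8% of all genes), and 3 reached an unadjusted p under 0.05 (8.67% of all genes). Their most abundant member was the transcription factor Tfcp2l1, at 22452, 25363 and 17741 in WT and 21365, 20933 and 12593 in KO.

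**Figure D3:**
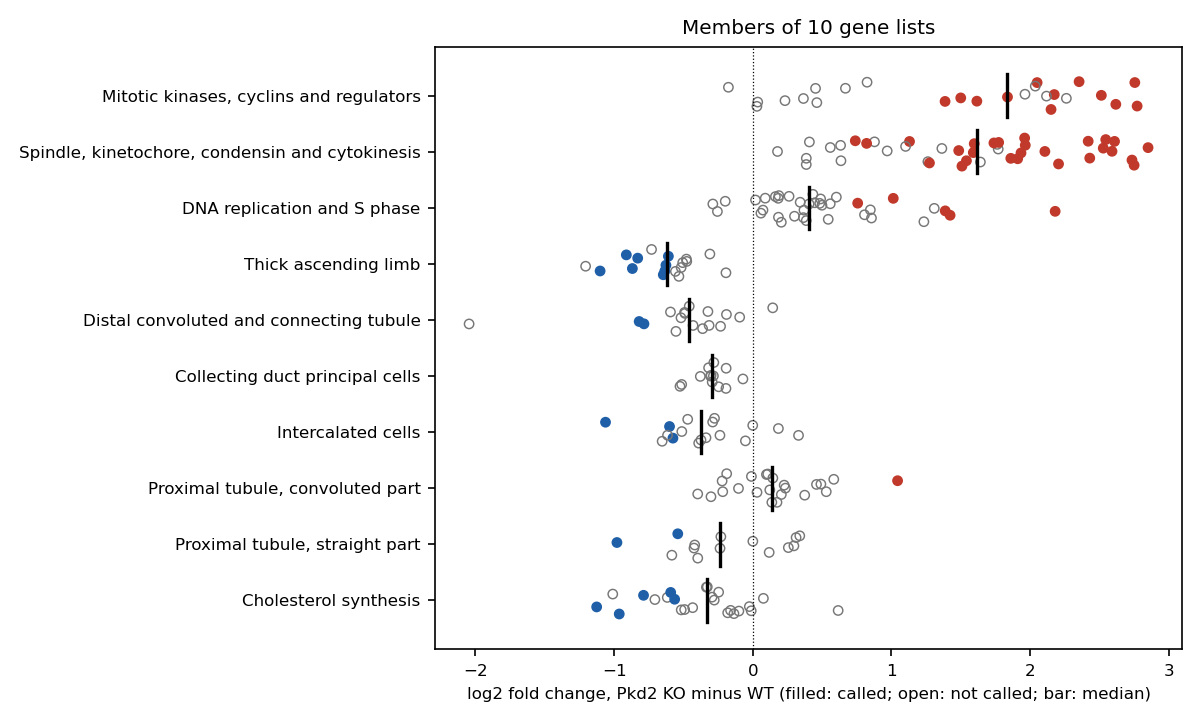
Log2 fold changes (KO minus WT) of the members of 10 gene lists, filled where called and open where not, with a bar at each list's median. The medians run from 1.84 for mitotic kinases and cyclins to -0.62 for the thick ascending limb, and the convoluted proximal tubule has its median at 0.14.

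Most proximal tubule markers did not pass. Of 23 markers of the convoluted part 1 rose (median 0.14, 16 with higher means): Slc5a12, a lactate transporter of the apical membrane, at 10426, 10789.5 and 12918 in WT and 22918, 26026 and 21365 in KO. Its lowest KO value was well above its highest WT value (1.04 ± 0.18, adjusted p = 0.0252). Slc34a1 did not pass (adjusted p = 0.917).

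In the straight part 2 of 14 markers fell (median -0.23), against 1.25% of all tested genes. Without overlap 7 of the 14 were lower and 2 higher (12.8% and 12.4% of all tested genes). At an unadjusted p under 0.05 limma had 6 lower and 1 higher (8.67% and 9.36% of all genes). Cyp7b1, an oxysterol hydroxylase, was at 13762, 12190.1 and 14122 in WT and 6019, 7019 and 7312 in KO (-0.98 ± 0.14, adjusted p = 0.0118). The aspartic protease Napsa was at 67092, 63839 and 64810.2 in WT and 41395, 45572 and 47782 in KO (-0.54 ± 0.08, adjusted p = 0.0130). In both, the 3 KO kidneys lay below all WT kidneys. Cyp7b1 (left out: WT1 or KO1), and Napsa and Slc5a12 (left out: WT1, WT2, KO1 or KO2) lost their calls without 1 library, with adjusted p up to 0.0999. The male-biased list of 12 genes held the same Cyp7b1 call and no other, with a median of 0.34, and Kap, its most abundant gene, was at 1119920.0, 1009280.0 and 946101 in WT and 1054750.0, 886545 and 931801 in KO. Limma, DESeq2 and edgeR called 0 of 4 female-biased genes, and 0 reached an unadjusted p under 0.05. Podocyte markers (12), 10 genes of osmolyte and urea transport and 17 transcription factors of the kidney lineage had 0 limma calls. At an unadjusted p under 0.05 these held 4, 1 and 4 genes, DESeq2 called 1 podocyte gene, and edgeR called none.

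Cholesterol synthesis genes fell in 5 of 24 tested members, and 22 had lower means (median -0.33, 13 without overlap). Of all tested genes 1.25% were called lower and 12.8% were lower without overlap. Insig1, which retains the sterol sensor complex in the endoplasmic reticulum and is itself switched on by it, was at 2253, 2414 and 2232 in WT and 866, 905 and 1487 in KO (-1.13 ± 0.22, adjusted p = 0.0342). Cyp51, lanosterol demethylase, was at 15106, 15109.7 and 15949 in WT and 6802, 7627 and 9471 in KO (-0.96 ± 0.19, adjusted p = 0.0342). Sc4mol, the sterol methyl oxidase that follows it, was at 1709, 1544 and 1711 in WT and 933, 1051 and 894 in KO (-0.79 ± 0.09, adjusted p = 0.00525). For Insig1 and Cyp51, KO3 was the highest of the KO kidneys, and all 3 genes were lower in every KO kidney than in any WT kidney.

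Squalene synthase (Fdft1) and farnesyl diphosphate synthase (Fdps) had log2 fold changes of -0.59 ± 0.10 and -0.56 ± 0.11. The earlier enzyme Hmgcs1, the most abundant member, was at 41597, 36702 and 36780.5 in WT and 43082, 35361 and 34998 in KO and did not pass. Sc4mol kept its call whichever library was left out. Fdft1 (left out: WT1, WT2, KO1 or KO2), Insig1 and Cyp51 (left out: WT1, WT2, WT3, KO1 or KO2), and Fdps (left out: any WT or KO, DKO1 or DKO2) lost their calls without 1 library, with adjusted p up to 0.153. The list's count was 1 without any one of WT1, WT2, KO1 and KO2, 2 without WT3 and 3 without WT3 and KO3 together. DESeq2 called 3 and edgeR 0.

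In glycolysis 3 of 21 genes fell: pyruvate kinase Pkm (-0.51 ± 0.10), hexokinase Hk1 (-0.46 ± 0.10) and the muscle-type phosphofructokinase Pfkm (-0.36 ± 0.07). Of all tested genes 1.25% were called lower. The list's median was -0.16, with 10 genes lower without overlap (12.8% of all tested genes) and 2 higher (12.4%). Pkm, Hk1 and Pfkm (left out: any WT or KO or DKO1) lost their calls without 1 library, with adjusted p up to 0.146. Fads1, a fatty acid desaturase, fell as 1 of 18 fatty acid synthesis genes (-0.47 ± 0.07). Fads1 (left out: WT1, WT2, KO1 or KO2) lost its call without 1 library, with adjusted p up to 0.0778.

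Prodh2, hydroxyproline dehydrogenase of the proximal tubule, was at 2181, 2109 and 2412 in WT and 726, 680.3 and 975 in KO (-1.51 ± 0.17, adjusted p = 0.00463), with its highest KO value far below its lowest WT value. Hgd, homogentisate dioxygenase, was the other of 2 genes of 24 in gluconeogenesis and amino acid breakdown that fell (-0.38 ± 0.08, adjusted p = 0.0448). Prodh2 kept its call whichever library was left out. Hgd (left out: any of the 9) lost its call without 1 library, with adjusted p up to 0.166. Pck1, which commits carbon to glucose, was at 146108, 159828 and 139429 in WT and 133694, 151187 and 69836 in KO, with KO3 the lowest.

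Of 28 nuclear genes of the respiratory chain and TCA cycle limma called 0, although all 28 had lower means in KO and 22 had groups that did not overlap (median -0.17), against 12.8% of all tested genes in this direction. An unadjusted p under 0.05 was reached by 13, all lower (8.67% of all genes), and DESeq2 and edgeR called 0. The ATP synthase subunit Atp5b was at 114798, 114438 and 131489 in WT and 113806, 110013 and 109344 in KO. No fatty acid oxidation gene of 24 and no mitochondrially encoded gene of 7 was called by limma, DESeq2 or edgeR, with 3 and 0 at an unadjusted p under 0.05. Among 17 NRF2 targets glutathione reductase (Gsr) fell (-0.42 ± 0.08, adjusted p = 0.0334). Gsr (left out: WT1, WT2, WT3, KO1 or KO2) lost its call without 1 library, with adjusted p up to 0.124.

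Among the deepest falls were genes of glucuronidation, which couple drugs and steroids to glucuronic acid. Ugt1a10 was at 878, 865 and 1629.5 in WT and 37.7, 39.2 and 17.5 in KO. Ugt1a9 was at 472, 463 and 868 in WT and 2.98, 0 and 0 in KO, and Ugt1a8 at 124, 123 and 168 in WT and 1.99, 0 and 0 in KO. The 3 genes were nearly silent in every KO kidney (adjusted p = 0.000514, 0.000717 and 0.000972), and WT3 had the highest value of each. Ugt1a10, Ugt1a9 and Ugt1a8 kept their calls whichever library was left out. edgeR called all 3 as well. The genes of this cluster use their own first exons and share the later ones, which leaves uncertain how reads were divided between them.

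Summed over the 3 genes, the level was 1473, 1451 and 2665 in WT and 42.7, 39.2 and 17.5 in KO. Summed over the other 5 tested members, it was 6245, 6187 and 3370.1 in WT and 9578, 8063 and 11320.1 in KO. The first sum was lower and the second higher in every KO kidney than in any WT kidney. Nearly all of the second sum was Ugt1a7c, at 5869, 5721 and 2787 in WT and 9291, 7789 and 10975 in KO, which did not pass (adjusted p = 0.0867). Ugt3a2, the most abundant gene of drug transport and conjugation, was at 77950.1, 73054 and 75095 in WT and 70338, 67155 and 76649.9 in KO. In that list of 26 the 1 call was Abcc2, an apical exporter of organic anions, at 14232, 13711 and 10741 in WT and 18582, 18556 and 22750.4 in KO (0.63 ± 0.13, adjusted p = 0.0403). Abcc2 (left out: any WT or KO or DKO2) lost its call without 1 library, with adjusted p up to 0.105.

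Klk1b22, 1 of a cluster of near-identical kallikrein protease genes, was at 1495, 544 and 716 in WT and 9.93, 14.95 and 1.95 in KO (adjusted p = 0.00146). It was the 1 called member of 8 tested, all 8 had lower means in KO, and reads may be shared among these paralogs. Klk1b22 kept its call whichever library was left out. Of 28 cytochrome P450 genes 2 fell, the Cyp7b1 already described and Cyp2a4, a testosterone hydroxylase with close paralogs, at 23660.3, 21374 and 31479 in WT and 3859, 4578 and 8754 in KO (-2.23 ± 0.33, adjusted p = 0.0130). Cyp2a4 (left out: WT2, KO1 or KO2) lost its call without 1 library, with adjusted p up to 0.0624.

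Stress-response and growth-arrest genes fell in 3 of 28. Ddit4, which restrains mTORC1 and responds to glucocorticoids and stress, was at 3751, 5124 and 3129.5 in WT and 525, 734 and 642 in KO (-2.64 ± 0.42, adjusted p = 0.0172). Gadd45g, a growth arrest gene, was at 3093, 4236 and 3493 in WT and 948, 897 and 475 in KO (-2.27 ± 0.42, adjusted p = 0.0297). Ier3, an immediate early gene, was at 1984, 1884 and 1651 in WT and 764, 1039 and 1049 in KO (-0.96 ± 0.15, adjusted p = 0.0167). No KO value of Ddit4 or Gadd45g came near the WT range. Ier3 (left out: WT1, WT2 or KO2), Ddit4 (left out: WT1, WT2, KO1 or KO2), and Gadd45g (left out: any WT or KO) lost their calls without 1 library, with adjusted p up to 0.112. The list as a whole did not move alike in the mice, with medians against the WT mean of -0.39, -0.43 and 0.41 in KO1 to KO3. Of 13 glucocorticoid targets Ddit4 was the 1 called, and 10 had lower means (median -0.41). Errfi1, the most abundant of them, was at 34955, 41746 and 31767 in WT and 24621, 27462 and 19098 in KO and did not pass.

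Signalling lists held few calls. Wnt11, a secreted ligand of ureteric bud tips, was at 68.3, 80.01 and 77.3 in WT and 16.9, 9.34 and 5.85 in KO (-2.81 ± 0.38, adjusted p = 0.00884). Sfrp1, a secreted Wnt inhibitor, was at 7314, 6231 and 6940.5 in WT and 4212, 4309.7 and 3252 in KO (-0.81 ± 0.12, adjusted p = 0.0156). Ligand and inhibitor both fell, as the 2 called of 29 Wnt pathway genes, and the coreceptor Lrp6 was at 13064, 13374 and 11013 in WT and 11727, 11547 and 12776 in KO. Of all tested genes 1.25% were called lower. In the Wnt list 10 genes were lower and 4 higher without overlap (12.8% and 12.4% of all tested genes). At an unadjusted p under 0.05 it held 7 lower and 2 higher (8.67% and 9.36% of all genes). Wnt11 (left out: WT2), and Sfrp1 (left out: WT1) lost their calls without 1 library, with adjusted p up to 0.0690. Egf was the 1 called gene of 14 in the EGF receptor family and its ligands. Birc5, a mitotic gene, was the 1 called of 20 YAP and TAZ targets.

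Ano3, of the anoctamin family, was the 1 called of 15 genes of chloride secretion, at 54.2, 60.8 and 31.6 in WT and 231, 249 and 523 in KO (2.70 ± 0.53, adjusted p = 0.0368). Ano3 (left out: any WT or KO or DKO2) lost its call without 1 library, with adjusted p up to 0.109. The cAMP (23), TGF-beta (22), JAK-STAT (21), Hedgehog (14) and renin-angiotensin (10) lists had 0 calls by limma, DESeq2 or edgeR. At an unadjusted p under 0.05 (18.0% of all genes) they held 7, 4, 3, 0 and 2 genes. The hypoxia (18), amino acid response (17) and unfolded protein (17) lists likewise had 0 calls by any of the 3 tools, with 4, 2 and 0 genes at an unadjusted p under 0.05. Of 18 circadian clock genes limma and edgeR called 0 and DESeq2 1 (Nr1d1, higher), with 5 at an unadjusted p under 0.05.

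Among the 20 largest falls were genes outside the lists. Gtf2h2, a subunit of the general transcription factor TFIIH, was at 1342, 1377 and 1503 in WT and 505, 501 and 534 in KO (-1.45 ± 0.07, adjusted p = 0.000131). Ppp1r1b, which encodes the phosphatase inhibitor DARPP-32, was at 2079, 1979.8 and 1999 in WT and 769, 752 and 725 in KO (-1.43 ± 0.08, adjusted p = 0.000146). Spink6, a serine protease inhibitor, was at 172, 110.4 and 250.4 in WT and 1.99, 0.934 and 0 in KO (adjusted p = 0.000514). All 3 were also called by edgeR on the 7 libraries. Biliverdin reductase B (Blvrb) fell from 1085 ± 217 to 424 ± 73.2, the kinase gene Stk32a from 391 ± 12.7 to 149 ± 22.0 and Elfn1 from 341 ± 33.6 to 139 ± 8.48 (SD, n = 3). The potassium channel gene Kcnh1 fell from 241 ± 55.4 to 70.2 ± 37.6, Spns3 from 157 ± 27.6 to 34.1 ± 19.2 and the phosphatase gene Dusp15 from 628 ± 8.498 to 204 ± 92.2. Lad1, ladinin of basement membranes (-1.53 ± 0.32), and Cpne4, a copine (-1.35 ± 0.26), also fell. Gtf2h2, Ppp1r1b, Spink6, Blvrb, Stk32a and Elfn1 kept their calls whichever library was left out. Spns3 (left out: WT2 or KO1), Dusp15 (left out: WT1, WT2, KO1 or KO2), Cpne4 (left out: WT1, WT2, WT3, KO1 or KO2), Kcnh1 (left out: WT1, WT2, KO1, KO2 or DKO1), and Lad1 (left out: any WT or KO or DKO1) lost their calls without 1 library, with adjusted p up to 0.140.

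Most called genes were neither in a list nor chosen by the naming rule: 126 of the 180 higher and 147 of the 197 lower. The 12 most abundant of these in each direction, picked after their values were seen, had changes of modest size, with log2 fold changes of 0.31 to 0.80 and -0.88 to -0.27. Clcn5, the endosomal chloride-proton exchanger mutated in Dent disease, was at 8191, 8404 and 8337 in WT and 10881, 11296 and 9767 in KO. Slc18a1, a vesicular monoamine transporter, was at 8777, 8983 and 8744 in WT and 19299, 12066 and 15534 in KO. Igf2r, the receptor that carries lysosomal enzymes and clears IGF2, was at 9742, 10238 and 8619 in WT and 13978, 13519.8 and 11561 in KO. In these genes every KO value was above every WT value. Also higher were C1qtnf3 (0.60), Tmem64 (0.53), the endocytic cochaperone Dnajc13 (0.37), Samd9l (0.44), the nuclear import receptor Tnpo1 (0.42), Unc119b (0.47), the mitochondrial ornithine carrier Slc25a15 (0.35), Sh3d19 (0.42) and Samd8 (0.31). Tmem64 kept its call whichever library was left out. Unc119b (left out: WT1, WT2 or KO1), Sh3d19 (left out: WT1, WT2, KO1 or KO2), Tnpo1 (left out: WT2, WT3, KO1 or KO2), C1qtnf3 (left out: WT1, WT2, KO1, KO2 or KO3), Slc18a1 (left out: WT1, WT2, WT3, KO1 or KO3), Dnajc13 (left out: any WT or KO), Clcn5 (left out: WT1, WT2, WT3, KO1, KO2 or DKO2), Samd9l (left out: WT2, WT3, KO1, KO2, KO3 or DKO1), Slc25a15 (left out: WT1, WT2, KO1, KO2, KO3 or DKO2), Igf2r (left out: WT1, WT2, WT3, KO1, KO2, DKO1 or DKO2), and Samd8 (left out: any WT or KO, DKO2 or DKO3) lost their calls without 1 library, with adjusted p up to 0.167.

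Miox, the kidney enzyme that begins the breakdown of inositol, was at 45091, 44258 and 44548 in WT and 29477, 28670.1 and 26665 in KO (-0.66 ± 0.09). Ghr, the growth hormone receptor, was at 50379.9, 47852 and 49375 in WT and 39199, 39426 and 39924 in KO (-0.32 ± 0.07). Nampt, which starts NAD salvage, was at 9897, 9740.4 and 8905 in WT and 7109.5, 7171 and 6973 in KO (-0.42 ± 0.08). All 3 were lower in every KO kidney by a modest amount. Also lower were the metabolic genes Aldh9a1 (-0.34), Akr1c14 (-0.51), Pecr (-0.46), Slc25a10 (-0.40), Cryl1 (-0.35) and Acadsb (-0.27). The remaining 3 were Camk2n1 (-0.42), Wwc1 (-0.45) and the ribosomal protein gene Rplp0 (-0.88). Miox (left out: WT2), Camk2n1 (left out: WT1, WT2, KO1 or KO2), Aldh9a1, Pecr and Wwc1 (left out: any WT or KO), Nampt (left out: WT1, WT2, KO1, KO2, KO3 or DKO1), Akr1c14 and Cryl1 (left out: any WT or KO or DKO1), Rplp0 (left out: WT1, WT2, KO1, KO2, KO3, DKO1 or DKO2), Slc25a10 (left out: WT1, WT2, KO1, KO2, DKO1, DKO2 or DKO3), Ghr (left out: any WT or KO, DKO1 or DKO2), and Acadsb (left out: any of the 9) lost their calls without 1 library, with adjusted p up to 0.191.

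Markers of other cell types had almost no calls but differed between the KO mice. For 20 macrophage and monocyte genes the median log2 fold change was 0.64 and limma called 0, with 9 higher and 2 lower at an unadjusted p under 0.05 (9.36% and 8.67% of all genes). DESeq2 called 1 lower and edgeR 0. The summed level of these genes was 8634 to 9881 in WT and 12215, 11765 and 8077 in KO1 to KO3, with none at 0 in any library. By this sum KO3 was below all WT kidneys and KO1 and KO2 above them. By the median of the members' log2 differences from the WT mean, KO3 was at 0.18, against 1.001 and 0.93 in KO1 and KO2 and -0.06, -0.04 and 0.17 in WT1 to WT3. Without KO3 limma called 4 of the 20 higher: the complement subunit C1qa, the mannose receptor Mrc1, the integrin Itgam and the Fc receptor chain Fcer1g. Csf1r, the receptor that maintains macrophages and the most abundant member not called, was at 2948, 3197 and 3108 in WT and 3469, 3277 and 3526 in KO.

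Complement (21 genes) had medians against the WT mean of 0.62, 0.86 and -0.03 in KO1 to KO3. The same medians were 0.62, 0.36 and -0.12 for 23 collagen chains, 0.40, 0.22 and -0.22 for 25 genes of tubular injury and simple keratins, and 0.76, 1.08 and -0.06 for 11 lymphocyte markers. By these medians KO3 lay near or below the WT mean. The summed lymphocyte level was 768 in KO3, above the 299 to 422 in WT. Limma called 0 in all 4, with 7, 7, 5 and 1 genes at an unadjusted p under 0.05, and 2, 3, 5 and 0 higher without KO3. Those were C1qa and Serping1 of complement, the collagen chains Col1a1, Col1a2 and Col8a1, and the injury genes Krt20, Vcam1, Cd44, Sox9 and Tmsb10. DESeq2 and edgeR called 0. Sox9, a regulator of injured and repairing tubule cells chosen after its values were seen, was at 35.2, 25.9 and 18.5 in WT and 83.4, 86.9 and 15.6 in KO. Cd44, an adhesion receptor of injured tubules chosen in the same way, was at 91.4, 126 and 75.1 in WT and 485, 352 and 158 in KO. KO3 had the lowest Sox9 value of the 6 kidneys, while its Cd44 value was above WT and below the other KO kidneys (adjusted p = 0.456 and 0.0642).

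Fibroblast genes (18) and matrix proteases and inhibitors (20) had 0 limma calls, with 5 and 3 genes at an unadjusted p under 0.05. DESeq2 called 1 fibroblast gene, decorin (Dcn), and edgeR called 0. Of 22 chemokines and cytokines 1 was called, the chemokine Cxcl12, which was lower: 6540.3, 6494 and 7036 in WT and 4217, 4298 and 4616 in KO (-0.61 ± 0.11, adjusted p = 0.0260). Most of the list went the other way, with 18 of the 22 at higher means in KO (median 0.98). At an unadjusted p under 0.05 it held 8 higher and 1 lower (9.36% and 8.67% of all genes). Its medians against the WT mean were 1.41, 0.31 and 0.56 in KO1 to KO3. They were -0.09, 0.34 and -0.34 in WT1 to WT3. Of 28 interferon and antigen presentation genes the RNA sensor Ddx58 rose (0.45 ± 0.09, adjusted p = 0.0435). All 28 had higher means in KO (median 0.29), 3 of them without overlap (12.4% of all genes). The list's medians against the WT mean were 0.43, 0.59 and -0.03 in KO1 to KO3, with KO3 near the WT mean. Cxcl12 (left out: WT1, WT2, WT3, KO1 or KO2), and Ddx58 (left out: any of the 9) lost their calls without 1 library, with adjusted p up to 0.164.

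KO3 had the highest erythroid level, with a summed 9224 normalized counts over the 9 listed genes against 3867 to 4571 in WT and 3729 and 2985 in KO1 and KO2. The brown fat marker Ucp1, chosen after its values were seen, was at 147, 255 and 304 in WT and 285, 40.2 and 968 in KO, with the highest value again in KO3. Limma called 0 of 8 erythroid and 0 of 11 adipocyte markers, with 2 of each at an unadjusted p under 0.05, and DESeq2 and edgeR called 0. Endothelial markers (16) also had 0 calls by these tools, with 3 at an unadjusted p under 0.05, and their summed level was 30138 to 32096 in WT and 31519, 30890 and 26896 in KO1 to KO3. The part of these cell types in the results was not tested. The mitotic kinase and cyclin list had medians of 1.56, 1.91 and 2.03 in KO1 to KO3, the spindle list 1.39, 1.75 and 1.74, and the thick ascending limb list -0.55, -0.59 and -0.71. Those lists therefore moved in KO3 as they did in KO1 and KO2.

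**Figure D4:**
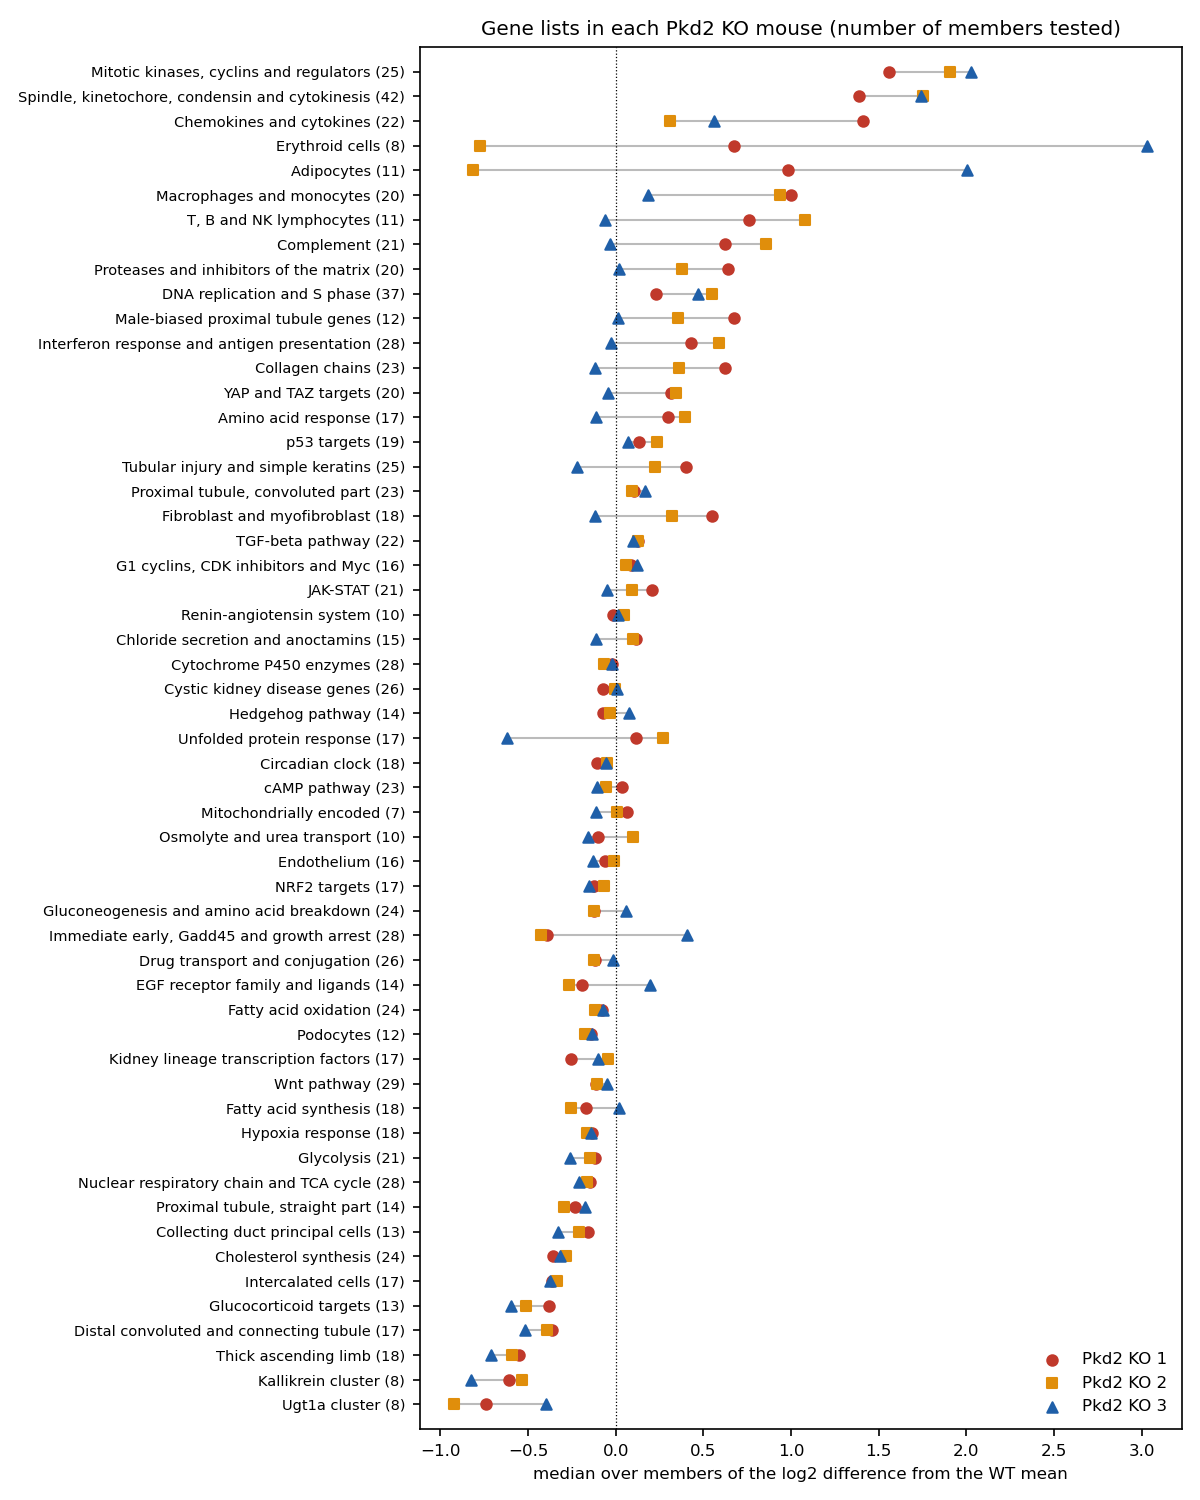
For each of 55 gene lists with at least 5 tested members (number in parentheses), the median over its members of the log2 difference from the WT mean, in KO1 (circle), KO2 (square) and KO3 (triangle), joined by a grey line. The mitotic and thick ascending limb lists lie close together in the 3 mice, while erythroid genes run from -0.78 to 3.03 and macrophage genes from 0.18 to 1.001.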

How the data were processed

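The authors deposited 1 table of gene counts scaled by DESeq2 size factors, a normalized signal per gene, with 1 column for each of the 9 kidneys. Per the submitters' processing notes, STAR 2.5.0 aligned the reads and HTSeq 0.6.1 counted them. Build, gene annotation and strand setting were not given in the sources used here. Limma 3.58.1 (R 4.3.3) was run on log2(normalized count + 1) of all 3 groups, with an intensity trend, no block and Benjamini-Hochberg adjustment over 15740 genes with a mean of at least 10. This main analysis is the source of every adjusted p for which no other tool is named. Divided by the value of 1 read, 100% of values came out whole (tolerance 0.05) in all 9 libraries. In WT1 and KO1, 1 read was worth 1.004 and 0.993 normalized counts. Whole reads were used for the other 7 libraries only, so edgeR 4.0.16 and DESeq2 1.42.0 were run without WT1 and KO1. In those runs WT2 and WT3 were the only WT mice and KO2 and KO3 the only KO mice. Genes named were the cystic disease genes, the 20 largest rises and falls (mean of at least 50, groups apart, pseudogenes and clone names left out), and in each list up to 8 called members and the most abundant uncalled one, and called neighbours of Pkd2. The remaining called mitotic and spindle genes, and genes called only with other tools or libraries, were named after their values were seen. Gene lists and members were chosen with earlier results of these data known. Of 1072 list genes, 1012 were tested. Analyses were tested on simulated data. Promoters are from RefSeq (GRCm38.p6). Mice are biological replicates per the labels. Some genes that the naming rule selects are not reported here.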

Additional observations from a re-analysis of the deposited data

How the results depend on the processing

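Replicate numbers did not pair the mice: deviations of same-numbered KO and WT libraries correlated at 0.061, -0.080 and 0.052, and KO1 and KO2 correlated better with another number. With the replicate number as a block, 217 genes were called (99 higher, 118 lower; 193 among the 377), with 3 replication and 2 cholesterol genes. Array quality weights gave 3222 calls (1705 higher, 1517 lower), with 19 mitotic, 17 replication, 15 thick ascending limb and 11 cholesterol genes. Without WT3 and KO3 together 273 were higher, and 3 cholesterol genes were called. On 7 libraries edgeR called 11 genes (2 higher, 9 lower), with 1 mitotic gene and 0 in the spindle, replication, thick ascending limb and cholesterol lists, and Pkd2 at -1.42 (log2). Limma on the same 7 libraries, chosen after seeing the data, called 13 (3 higher, 10 lower), with 1 mitotic gene and 0 in the other 4 lists. DESeq2 called 3 cholesterol genes.

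Without 1 library at a time, 70 to 436 genes were called, 32 to 209 higher and 38 to 233 lower. The ranges were 5 to 15 for the mitotic, 10 to 30 for the spindle, 1 to 6 for the replication, 2 to 10 for the thick ascending limb and 1 to 5 for the cholesterol list. Over 186 named genes, 4083 values were recomputed: 3333 kept their side of the threshold, 724 lost the call and 26 gained it. None of the 377 called genes changed sign in these settings where it was fitted, while uncalled genes near 0 could. The causes were not tested.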
